A study of Mus musculus with 24 samples.

Results

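The genes described here encode the matrix metalloproteinases (Mmp), their tissue inhibitors (Timp), the secreted ADAMTS proteases (Adamts) and the ADAMTS-like proteins (Adamtsl). They were chosen by symbol, as every gene of these 4 families with a probe set of its own on the array, and they number 49 of the 19938 genes tested: 22 Mmp, 4 Timp, 18 Adamts and 5 Adamtsl genes. RNA from cultured mouse muscle cells was hybridised to 24 Affymetrix arrays in 8 groups of 3, which crossed genotype, stage of differentiation and bone morphogenetic protein 4 (BMP4). The wild-type cells were the H-2Kb-tsA58 line, which carries a temperature-sensitive immortalising antigen, and the MuSK-null cells were a MuSK-/- line; with 1 line for each genotype, a difference between genotypes and a difference between lines cannot be told apart. Myoblasts, the proliferating precursors, were grown at 33 °C with fetal bovine serum and interferon-γ, and myotubes, the fused and differentiated cells, were obtained after 3 days at 37 °C in horse serum. Stage, temperature and medium changed together, so their parts in a difference between stages cannot be told apart. Treated cells received 25 ng/ml BMP4 for 8 h. Treated myoblasts had first been deprived of serum for 4 h and treated myotubes had not; for the untreated myoblasts nothing is said of deprivation, so in myoblasts BMP4 and serum withdrawal cannot be told apart. The arrays of a group are labelled as biological replicates, but nothing says that they came from separate cultures, and the p-values then reflect only how far these samples spread, which may be technical.

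Metalloproteinases are zinc enzymes that together cut most proteins of the extracellular matrix. Mmp2, activated at the cell surface by the membrane-anchored Mmp14 with Timp2 as a bridge, is the main gelatinase of muscle cell cultures. The 4 Timp proteins bind and block metalloproteinases, and Timp3, which is held in the matrix, also blocks several ADAMTS enzymes, among them Adamts4 and Adamts5. Adamts1, Adamts4, Adamts5 and Adamts9 cut versican and related proteoglycans, Adamts3 and Adamts14 trim procollagens, and Adamts7 and Adamts12 act on cartilage oligomeric matrix protein. The ADAMTS-like proteins share the non-catalytic domains of this family and have no protease domain. MuSK is the receptor tyrosine kinase that organises the neuromuscular junction and has been described as a BMP co-receptor; the series compares BMP4 responses with and without it. Transcript levels do not report enzyme activity.

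Signals are on the log2 scale as deposited, and a difference of 1 is a doubling. Changes are limma estimates with their SE, and a gene is said to have changed, or to be called, where the p-value adjusted over all genes tested (Benjamini-Hochberg) was below 0.05. As a gauge of genes that muscle cells do not use, 1015 olfactory receptor genes had group means with a median of 4.99 and a 95th percentile of 6.66; 73.0% of the genes tested rose above that percentile in at least 1 group. Of the 49 genes, 35 did so and 14 did not: Mmp1a, Mmp1b, Mmp3, Mmp7, Mmp8, Mmp10, Mmp12, Mmp13, Mmp20, Mmp21, Mmp25, Mmp27, Adamts15 and Adamts19. These 14 are called dim below, and no fold is read for them. The genes nearest to the limit were Adamts18, with a highest group mean of 6.67, and Mmp20, with 6.60. All 4 Timp and all 5 Adamtsl genes were above it, as were 16 of 18 Adamts and 10 of 22 Mmp genes. Array medians ran from 7.38 to 7.50, and the median SD within a group was 0.0861 for the 49 genes and 0.0916 for all genes. In each myoblast group 1 array deviated from its group together with the others: untreated replicate 2 and BMP4-treated replicate 3 of the wild-type cells, and replicate 2 of both MuSK-null groups (correlation of their deviations 0.42 to 0.54 across genes). The 4 were found after the data were seen, and Timp3 was lowest of its group on each of them, so results that rest on them are given without them too.

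**Figure D1:**
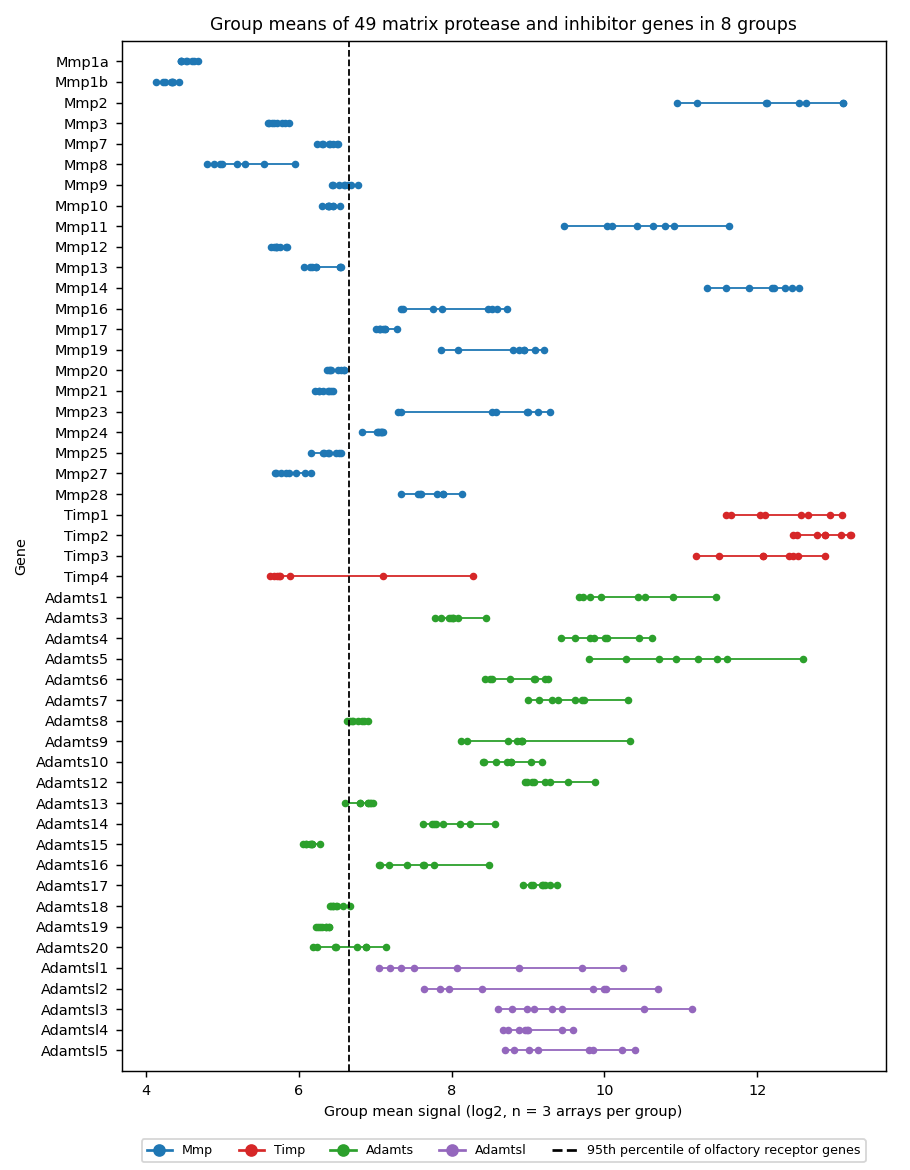
Each point is the mean log2 signal of 1 group (n = 3 arrays) for 1 gene, the bar spans the 8 groups, colours give the family, and the dashed line is the 95th percentile of the olfactory receptor genes (6.66). 12 Mmp genes lie wholly to the left of the line, while Timp4 lies above it only in the wild-type myotube groups.

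The dim Mmp genes shared a place in the genome. In the RefSeq annotation 10 Mmp genes, namely Mmp13, Mmp12, Mmp1b, Mmp3, Mmp1a, Mmp10, Mmp8, Mmp27, Mmp20 and Mmp7, follow one another on chromosome 9, and all 10 were dim; they include the collagenases Mmp13 and Mmp8 and the stromelysins Mmp3 and Mmp10, which are known as genes induced by inflammatory signals through AP-1. The other 4 dim genes lie elsewhere. Mmp13 had group means between 6.07 and 6.55 and Mmp3 between 5.61 and 5.87. Mmp9, the gelatinase of inflamed and injured muscle, was just above the gauge, with group means between 6.43 and 6.78 and no call in any comparison.

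RefSeq promoter windows (build GRCm38.p6, 250 bases before the annotated start) were at hand for 34 of the 49 genes. They are shown because the windows of the chromosome 9 run and those of the other members, which include the dim Mmp21 and Mmp25, differ in short motifs. On either strand, the AP-1 motif TGANTCA was found in 8 of the 10 windows of the run and in 0 of the other 24, against 6.75% of all 32851 windows of that length. TATAAA was found in 7 of 10 and 3 of 24, against 12.4% of all windows. The GC box GGGCGG was found in 0 of 10 and 18 of 24, against 32.7%. The GC-rich motif GGCGCC was found in 0 of 10 and 5 of 24, against 9.59%; it can share letters with GGGCGG. A match describes the letters only, and binding was not measured. The 120 bases before the start of 4 genes of the run follow, 5′ to 3′ along the gene, with TGANTCA and TATAAA matches in capitals.
Mmp13, chr9:7272394-7272513, + strand: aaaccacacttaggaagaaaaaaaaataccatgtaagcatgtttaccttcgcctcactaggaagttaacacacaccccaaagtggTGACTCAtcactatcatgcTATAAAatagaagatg
Mmp3, chr9:7445702-7445821, + strand: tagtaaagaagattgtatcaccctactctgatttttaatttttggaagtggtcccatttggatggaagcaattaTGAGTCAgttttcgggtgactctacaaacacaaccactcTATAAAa
Mmp10, chr9:7502222-7502341, + strand: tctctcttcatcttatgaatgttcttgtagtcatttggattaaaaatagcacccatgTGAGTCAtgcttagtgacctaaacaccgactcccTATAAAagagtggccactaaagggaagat
Mmp1b, chr9:7388027-7388146, - strand: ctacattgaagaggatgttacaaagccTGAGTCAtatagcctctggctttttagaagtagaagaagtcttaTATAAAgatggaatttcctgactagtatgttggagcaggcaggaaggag

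The same stretch of 3 genes that were above the gauge in every group and rose with BMP4 in at least 1 comparison follows, with GGGCGG on either strand in capitals. The motif is not particular to genes that rose. The windows of Adamts14 and Adamtsl2, which fell with BMP4, and of the dim Mmp25 hold it too.
Timp3, chr10:86300292-86300411, + strand: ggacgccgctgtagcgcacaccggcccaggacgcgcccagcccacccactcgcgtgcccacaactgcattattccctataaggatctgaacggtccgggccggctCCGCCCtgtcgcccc
Mmp14, chr14:54431478-54431597, + strand: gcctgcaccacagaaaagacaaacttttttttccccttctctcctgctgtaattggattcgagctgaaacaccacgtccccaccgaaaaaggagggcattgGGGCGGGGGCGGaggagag
Mmp11, chr10:75932503-75932622, - strand: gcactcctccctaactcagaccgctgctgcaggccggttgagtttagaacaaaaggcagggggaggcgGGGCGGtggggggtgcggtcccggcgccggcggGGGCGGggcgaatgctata

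Transcripts of some AP-1 subunits changed with BMP4. Of 7 AP-1 genes, 3 were higher and 0 lower after BMP4 in wild-type myoblasts, 2 higher and 1 lower in MuSK-null myoblasts, 3 higher and 0 lower in wild-type myotubes and 4 higher and 0 lower in MuSK-null myotubes. Over all genes tested, 5.21%, 3.89%, 4.4% and 5.36% were higher and 5.76%, 4.52%, 4.37% and 5.9% lower in that order. Junb rose by 0.80, 0.72, 0.93 and 0.63 in the same order. No dim gene of the chromosome 9 run was called higher after BMP4 in any of the 4 settings. No fold is read for these dim genes, AP-1 protein was not measured, and a link between AP-1 and their levels was not tested.

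Adamts5, the aggrecanase, had the largest fall with BMP4 of the 49 genes in both kinds of myoblasts. In wild-type myoblasts its signal was 11.48, 11.42 and 11.53 without BMP4 and 9.74, 9.85 and 9.80 with it, a log2 change of -1.68 ± 0.06 (SE), or 3.2-fold lower (limma, adjusted p = 7.84e-15). In MuSK-null myoblasts it went from 12.64, 12.59 and 12.56 to 11.57, 11.67 and 11.59, a change of -0.99 ± 0.06 (adjusted p = 8.18e-11). The untreated and treated arrays were far apart in both lines, and treated MuSK-null myoblasts ended above untreated wild-type myoblasts. In wild-type myotubes Adamts5 was 10.99, 10.97 and 10.86 without and 10.30, 10.36 and 10.18 with BMP4, a change of -0.66 ± 0.06 (adjusted p = 7.96e-08). In MuSK-null myotubes it was 11.27, 11.23 and 11.14 without and 10.66, 10.75 and 10.73 with BMP4, a change of -0.50 ± 0.06 (adjusted p = 2.49e-06). The fall was 0.69 ± 0.09 smaller in MuSK-null than in wild-type myoblasts (adjusted p = 3.46e-05). In myotubes the difference between genotypes was 0.16 ± 0.09 (adjusted p = 0.459), and the 2 genotype differences themselves differed (-0.53, adjusted p = 0.0181). In both lines the fall was smaller in myotubes than in myoblasts, by 1.02 in wild-type cells (adjusted p = 1.96e-07) and by 0.48 in MuSK-null cells (adjusted p = 0.000731).

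Timp3, the matrix-bound inhibitor of Adamts4 and Adamts5, moved the other way. In wild-type myoblasts it read 11.26, 10.96 and 11.38 without and 12.54, 12.65 and 12.40 with BMP4, a log2 rise of 1.33 ± 0.10 or 2.5-fold (adjusted p = 9.13e-10). In MuSK-null myoblasts it read 12.16, 11.91 and 12.14 without and 12.51, 12.23 and 12.51 with BMP4, a rise of 0.35 ± 0.10 (adjusted p = 0.0272). The arrays of each pair of groups did not overlap, and untreated MuSK-null myoblasts already stood above untreated wild-type ones. The rise was 0.98 ± 0.14 smaller in MuSK-null myoblasts (adjusted p = 0.000134). The MuSK-null myoblast call was lost without untreated replicate 2 or without BMP4-treated replicate 1 or 3 (adjusted p = 0.132 to 0.168) and when these groups alone were fitted (0.105), and with the 4 myoblast arrays named above left out it held (0.36, adjusted p = 0.00374). In myotubes Timp3 rose from 11.55, 11.55 and 11.40 to 12.04, 12.13 and 12.04 in wild-type cells (0.57 ± 0.10, adjusted p = 0.00036). In MuSK-null myotubes it rose from 12.40, 12.55 and 12.46 to 12.83, 12.96 and 12.86 (0.42 ± 0.10, adjusted p = 0.0053). The difference between genotypes was called in myoblasts and was -0.15 ± 0.14 in myotubes (adjusted p = 0.711), and these differed from each other by 0.83 (adjusted p = 0.0223; 0.0503 without BMP4-treated wild-type myoblast replicate 2).

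Adamts7 and Adamtsl3 were the other members called in 1 direction in all 4 BMP4 comparisons. Adamts7 fell by 0.56 in wild-type myoblasts (9.64, 9.80 and 9.67 to 9.13, 9.12 and 9.18; adjusted p = 1.25e-05) and by 0.69 in MuSK-null myoblasts (10.31, 10.22 and 10.41 to 9.54, 9.72 and 9.59; adjusted p = 7.3e-07). In myotubes it fell by 0.30 in wild-type (adjusted p = 0.0121) and by 0.33 in MuSK-null cells (adjusted p = 0.00439); the wild-type myotube call was lost without untreated replicate 1 or BMP4-treated replicate 1 or 3 (adjusted p up to 0.0735). Adamtsl3 rose by 0.65 in wild-type myoblasts (8.83, 8.76 and 8.79 to 9.43, 9.53 and 9.38; adjusted p = 1.1e-07) and by 0.63 in MuSK-null myoblasts (10.58, 10.49 and 10.48 to 11.12, 11.13 and 11.19; adjusted p = 2.43e-07). Its rises in myotubes were 0.33 in wild-type (adjusted p = 0.00134) and 0.47 in MuSK-null cells (adjusted p = 1.39e-05). For both genes no difference between genotypes or between stages of the BMP4 response was called. These 4 genes are 8.16% of the 49; over all genes tested, 393 or 1.97% were called in 1 direction in all 4. The 4 comparisons share no arrays. The fit gives each gene 1 estimate of spread over all 24 arrays, so the 4 calls of a gene are not independent. In at least 1 of them 24 members were called, 49% of the 49, beside 21.4% of all genes.

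**Figure D2:**
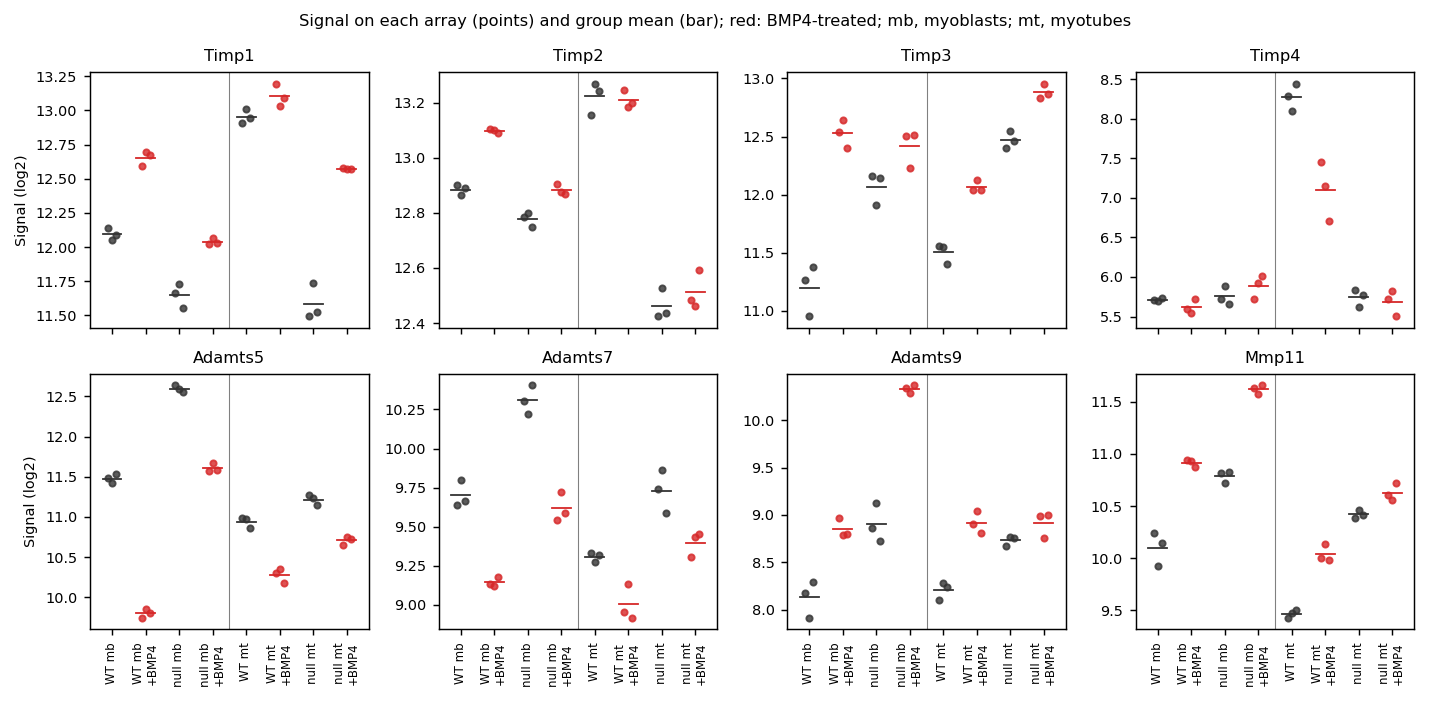
Log2 signal of each array (points) and group mean (bars) for 8 genes, with untreated groups in black and BMP4-treated groups in red, myoblasts left and myotubes right of the grey line; each panel has its own axis. Adamts5 falls and Timp3 rises with BMP4 in both lines at both stages, and Timp4 is high in the wild-type myotube groups.

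Timp1, a secreted inhibitor often induced with matrix remodelling, rose with BMP4 in both myoblast lines and in MuSK-null myotubes. In MuSK-null myotubes it went from 11.50, 11.74 and 11.53 to 12.58, 12.57 and 12.57, a rise of 0.99 ± 0.07 (adjusted p = 2.76e-10). In wild-type myotubes, where it was already at 12.91, 13.01 and 12.95, it read 13.20, 13.03 and 13.09 with BMP4 (0.15 ± 0.07, adjusted p = 0.196). The treated MuSK-null myotubes still lay below untreated wild-type ones. The difference between the 2 responses was 0.83 ± 0.09 (adjusted p = 5.39e-06). In myoblasts the rise was 0.56 in wild-type (12.14, 12.05 and 12.09 to 12.59, 12.70 and 12.67; adjusted p = 1.24e-06) and 0.39 in MuSK-null cells (11.66, 11.73 and 11.56 to 12.02, 12.07 and 12.03; adjusted p = 0.000215), with a difference of -0.17 (adjusted p = 0.575).

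Timp4, the inhibitor most typical of striated muscle and heart, was above the gauge in wild-type myotubes and in no other group. Untreated wild-type myotubes read 8.28, 8.10 and 8.44 and BMP4-treated ones 7.45, 7.14 and 6.70, a fall of 1.18 ± 0.13 (adjusted p = 1.22e-06). The 18 arrays of the other 6 groups lay between 5.50 and 6.01, within the range of the olfactory receptor genes, so the folds of Timp4 against them are understated by an unknown amount. On this scale it was 2.56 higher in untreated wild-type myotubes than in myoblasts (adjusted p = 1.24e-13), and the change from wild-type to MuSK-null myotubes was -2.53 (adjusted p = 2.99e-13). Timp2, the partner of Mmp14 in activating Mmp2, changed little with BMP4: it rose by 0.21 in wild-type myoblasts (12.90, 12.86 and 12.89 to 13.11, 13.10 and 13.09; adjusted p = 0.007), and in the other 3 settings the change lay between -0.01 and 0.10 with no call. The rise in wild-type myoblasts was not called when the groups of that comparison alone were fitted (adjusted p = 0.0745).

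Among the metalloproteinases, Mmp11 had the largest rise with BMP4 in both kinds of myoblasts. Mmp11, stromelysin 3, went from 10.24, 9.92 and 10.14 to 10.94, 10.93 and 10.87 in wild-type myoblasts (0.81 ± 0.07, adjusted p = 1.19e-08) and from 10.82, 10.72 and 10.83 to 11.64, 11.57 and 11.66 in MuSK-null myoblasts (0.84 ± 0.07, adjusted p = 1.03e-08). In wild-type myotubes it rose by 0.57 (9.43, 9.47 and 9.50 to 10.00, 10.14 and 9.98; adjusted p = 4.33e-06). In MuSK-null myotubes the change was 0.21 (adjusted p = 0.0631), 0.63 less than in MuSK-null myoblasts (adjusted p = 0.000182). Mmp28, epilysin, rose by 0.53 in wild-type (adjusted p = 1.21e-05) and 0.31 in MuSK-null myoblasts (adjusted p = 0.00755; up to 0.0782 without untreated replicate 1 or BMP4-treated replicate 3, 0.0903 without the 4 myoblast arrays named above and 0.112 when these groups alone were fitted). Mmp14 rose by 0.47 in wild-type myoblasts, from 11.99, 11.74 and 11.95 to 12.41, 12.44 and 12.24 (adjusted p = 0.000221), and its change was 0.26 in wild-type myotubes (adjusted p = 0.0553), 0.10 in MuSK-null myoblasts (adjusted p = 0.612) and 0.02 in MuSK-null myotubes (adjusted p = 0.934). The Mmp14 change in wild-type myotubes passed the threshold under 6 other settings (adjusted p = 0.0114 to 0.0384), among them quantile normalization and leaving out BMP4-treated replicate 3. Mmp2, the target of Mmp14, fell by 0.27 in wild-type myoblasts (11.28, 11.13 and 11.23 to 11.01, 10.96 and 10.87; adjusted p = 0.00403, or 0.0637 when only these groups were fitted) and its change was between -0.09 and 0.01 in the other settings. Mmp19 rose by 0.26 in wild-type myoblasts (adjusted p = 0.0107, or 0.0929 without untreated replicate 3 and 0.0728 when only these groups were fitted) and by 0.23 in MuSK-null myotubes (adjusted p = 0.0264, lost without any 1 of 4 of the 6 arrays, up to 0.128). Mmp16, Mmp17, Mmp23 and Mmp24, all of them membrane-anchored, were not called with BMP4 in any setting.

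Besides Adamts5 and Adamts7, the ADAMTS proteases split in direction. Adamts4, the second aggrecanase, fell by 0.75 in wild-type myoblasts (10.73, 10.45 and 10.68 to 9.91, 9.91 and 9.77; adjusted p = 7.13e-07) and by 0.64 in MuSK-null myoblasts (10.50, 10.31 and 10.53 to 9.81, 9.79 and 9.82; adjusted p = 9.93e-06). In myotubes its change was -0.18 in wild-type (adjusted p = 0.245) and -0.02 in MuSK-null cells (adjusted p = 0.945), and the stage difference was called in both lines (0.57 and 0.62). Adamts9, a versican-cleaving enzyme, rose instead: from 8.18, 7.91 and 8.30 to 8.97, 8.79 and 8.80 in wild-type myoblasts (0.72 ± 0.10, adjusted p = 1.45e-05) and from 8.86, 9.12 and 8.72 to 10.34, 10.29 and 10.37 in MuSK-null myoblasts (1.43 ± 0.10, adjusted p = 5.79e-10). It also rose in wild-type myotubes (0.71, adjusted p = 3.24e-05), and in MuSK-null myotubes the groups overlapped (0.18, adjusted p = 0.335). The rise of Adamts9 was 0.71 larger in MuSK-null than in wild-type myoblasts (adjusted p = 0.00559) and 0.53 smaller in MuSK-null than in wild-type myotubes (adjusted p = 0.0449, lost without any 1 of 10 of the 12 arrays and with the replicate block, 0.0625). The array has 6 probe sets for Adamts9; the other 5 rose by 0.52 to 1.50 in wild-type myoblasts, by 0.90 to 1.85 in MuSK-null myoblasts and by 0.59 to 1.58 in wild-type myotubes, and in MuSK-null myotubes their changes lay between -0.06 and 0.22 with no call.

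Other genes of the ADAMTS and ADAMTS-like families were called with BMP4 in at most 2 of the 4 settings, apart from Adamtsl3 described above. Adamts16 fell by 0.56 in wild-type myoblasts (7.61, 7.78 and 7.50 to 7.09, 6.95 and 7.15; adjusted p = 6.84e-05) and by 0.72 in MuSK-null myotubes (8.63, 8.39 and 8.47 to 7.78, 7.77 and 7.76; adjusted p = 2.59e-06). Its change was -0.12 in MuSK-null myoblasts and 0.23 in wild-type myotubes, with overlapping arrays in both. Adamts14, a procollagen N-proteinase, fell in both myotube lines, by 0.46 in wild-type (adjusted p = 6.89e-05) and 0.35 in MuSK-null cells (adjusted p = 0.000954). The related Adamts3 rose by 0.36 in MuSK-null myoblasts (adjusted p = 0.00363), and Adamts12 by 0.35 in wild-type myoblasts (adjusted p = 0.000169) and 0.20 in wild-type myotubes (adjusted p = 0.0384, lost without any 1 of 5 of the 6 arrays, up to 0.163). The Adamts3 value is from the brightest of its 16 probe sets, and the others are not given here. Adamts1, which lies next to Adamts5 on chromosome 16, fell by 0.57 in MuSK-null myoblasts (11.47, 11.56 and 11.36 to 10.81, 11.06 and 10.81; adjusted p = 1.17e-05) and changed by -0.14 in wild-type myoblasts (adjusted p = 0.352). Adamts6 fell by 0.23 in wild-type myoblasts (adjusted p = 0.0429), a call lost without any 1 of 5 of the 6 arrays (up to 0.185) and without the 4 myoblast arrays named above (-0.20, adjusted p = 0.208). Among the ADAMTS-like genes, Adamtsl1 was the 1 member called in opposite directions: it rose by 0.82 in MuSK-null myoblasts (8.05, 8.13 and 8.01 to 8.87, 8.86 and 8.92; adjusted p = 1.22e-06) and fell by 0.54 in wild-type myotubes (10.16, 10.31 and 10.24 to 9.92, 9.66 and 9.53; adjusted p = 0.000419). Both values are from the brighter of its 2 probe sets, and the BMP4 changes of the other are not given here. Adamtsl2 fell by 0.44 in wild-type myoblasts (adjusted p = 0.00656, or 0.0638 without untreated replicate 1) and by 0.68 in wild-type myotubes (adjusted p = 0.000102). Adamtsl4 and Adamtsl5 were not called with BMP4.

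The called genes came from all 4 families. In wild-type myoblasts 17 of the 49 were called, 10 higher and 7 lower, where 11% of all genes tested were called (5.21% higher and 5.76% lower). In MuSK-null myoblasts 12 were called, 8 higher and 4 lower, beside 8.42% of all genes (3.89% higher and 4.52% lower). In wild-type myotubes 11 were called, 5 higher and 6 lower, beside 8.77% (4.4% higher and 4.37% lower). In MuSK-null myotubes 10 were called, 4 higher and 6 lower, beside 11.3% (5.36% higher and 5.9% lower), and 2 of these 10, Mmp8 and Mmp13, were dim. The called genes of wild-type myoblasts were 3 of 4 Timp, 5 of 22 Mmp, 7 of 18 Adamts and 2 of 5 Adamtsl genes. The median log2 change of the 49 was 0.01 in wild-type myoblasts and 0.11 in MuSK-null myoblasts, and 0.04 and -0.07 in the respective myotubes, beside medians of all genes between -0.01 and 0.02. Of the Adamts genes, 5 of 7 called in wild-type myoblasts and 4 of 6 called in MuSK-null myoblasts were lower, while no Timp gene was called lower in myoblasts. A difference between genotypes in the BMP4 response was called for 5 of 49 in myoblasts, 3 higher and 2 lower in MuSK-null cells, beside 2.39% of all genes (1.17% higher and 1.22% lower). In myotubes it was called for 5, 2 higher and 3 lower, beside 3.21% (1.5% and 1.71%). A difference between stages was called for 7 in wild-type cells, 3 higher and 4 lower in myotubes, beside 3.42% (1.92% and 1.5%). In MuSK-null cells it was called for 10, 3 higher and 7 lower, beside 6.16% (3.24% and 2.92%); after quantile normalization or median centring this split was 5 and 5. The difference of the differences was called for 6, 2 higher and 4 lower, beside 2.5% (1.18% and 1.31%).

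**Figure D3:**
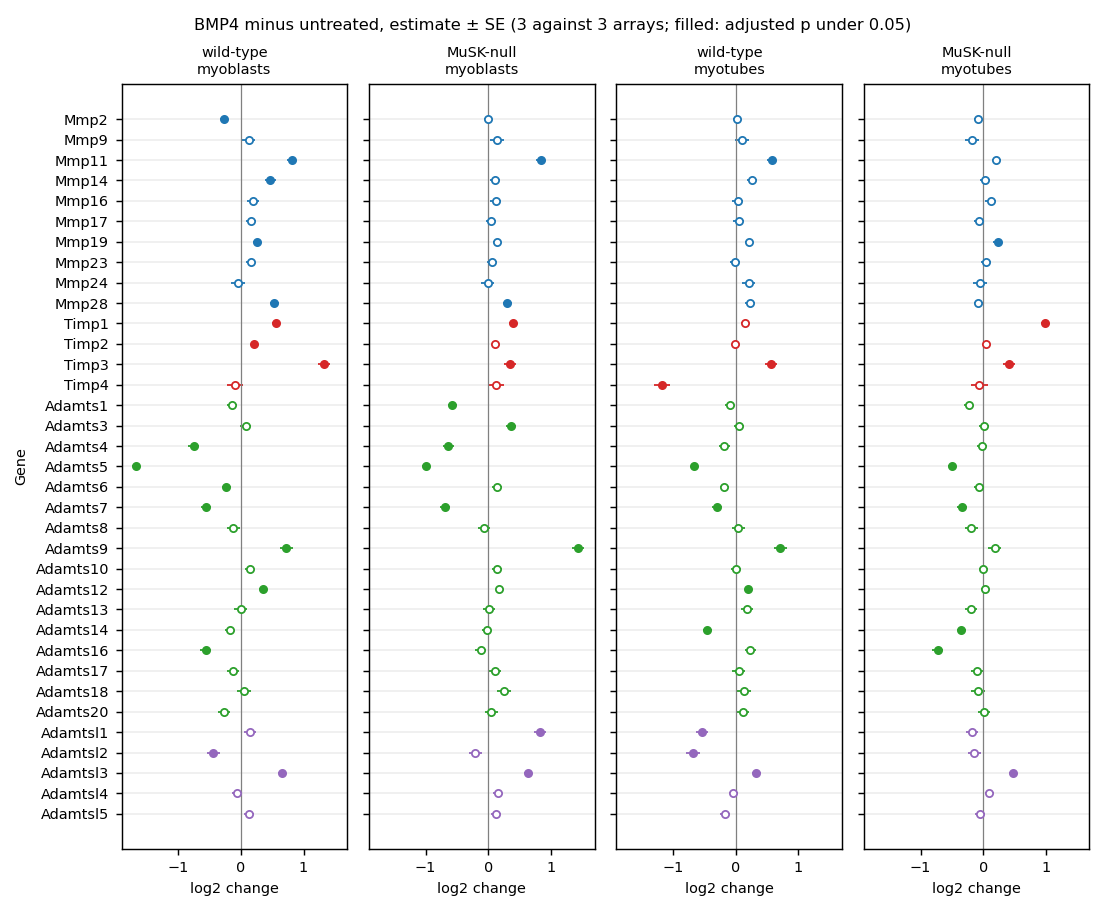
Log2 change with BMP4 (horizontal axis, ± SE of the fit, 3 against 3 arrays) of the 35 genes above the gauge in the 4 settings, with filled points where the change was called. The 4 genes filled in all 4 are Timp3 and Adamtsl3, to the right of 0, and Adamts5 and Adamts7, to the left.

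Several of these genes were higher in myotubes than myoblasts in wild-type cells and lower in MuSK-null cells, among them Mmp2, Adamts1, Adamtsl1 and Timp2. Among untreated cells 27 of 49 were called in wild-type cells, 15 of them higher and 12 lower after differentiation, beside 45% of all genes (20.3% higher and 24.7% lower). In MuSK-null cells 29 were called, 12 higher and 17 lower, beside 41.6% (18.2% and 23.4%). The change differed between lines for 24 genes, being greater in the MuSK-null line for 11 and smaller for 13, beside 29.1% of all genes (14.9% and 14.1%). Of the called genes 4, 5 and 3 were dim in these 3 comparisons. The 4 Timp and 5 Adamtsl genes were all higher in wild-type myotubes than myoblasts; in MuSK-null cells 1 Timp gene was higher and 1 lower, and 2 Adamtsl genes were higher and 3 lower.

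Adamtsl1, Timp4 and Adamtsl2, in that order, had the largest increases in wild-type differentiation; the values of Timp4 are given above. Adamtsl1, known as punctin, was at 6.87, 7.28 and 6.99 in untreated wild-type myoblasts and at 10.16, 10.31 and 10.24 in myotubes, 3.19 ± 0.09 higher or 9.13-fold (adjusted p = 1e-17). In MuSK-null cells it was at 8.05, 8.13 and 8.01 in myoblasts and 7.58, 7.55 and 7.40 in myotubes, 0.55 lower (log2 change -0.55, adjusted p = 3.59e-05), so that the 2 changes differed by -3.74 ± 0.13 (adjusted p = 1.21e-15). A second probe set of Adamtsl1 gave -2.46 for MuSK-null against wild-type myotubes, where the one used here gave -2.73. Adamtsl2, which binds fibrillin and the latent TGF-β complex, rose in both lines. It went from 8.60, 8.26 and 8.35 to 10.75, 10.62 and 10.75 in wild-type cells (2.30 ± 0.11, adjusted p = 1.97e-14) and from 7.81, 7.87 and 7.85 to 10.00, 10.12 and 9.86 in MuSK-null cells (2.15 ± 0.11, adjusted p = 6.96e-14), with no called difference between the lines (-0.15, adjusted p = 0.521). Adamtsl2 lies next to Mymk, the fusion gene myomaker, on chromosome 2, and Mymk was higher in myotubes by 0.69 in wild-type and 1.95 in MuSK-null cells. Adamtsl5 also rose in both lines, by 1.39 (adjusted p = 8.92e-13) and 1.15 (adjusted p = 2.67e-11).

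The windows of Timp4 and Adamtsl2, the former high in wild-type myotubes and the latter in all myotube groups, hold the E-box CAGCTG, the core bound by myogenic factors, in capitals. It was found in 8 of the 24 windows outside the chromosome 9 run and in 0 of 10 within it, against 13.0% of all windows. Adamts12, which was lower in wild-type myotubes, holds it too.
Timp4, chr6:115252206-115252455, - strand: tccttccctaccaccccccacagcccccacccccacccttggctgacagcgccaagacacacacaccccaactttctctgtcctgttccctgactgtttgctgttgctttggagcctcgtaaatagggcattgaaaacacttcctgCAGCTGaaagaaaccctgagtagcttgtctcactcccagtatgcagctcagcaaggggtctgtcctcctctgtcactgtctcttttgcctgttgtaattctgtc
Adamtsl2, chr2:27079129-27079378, + strand: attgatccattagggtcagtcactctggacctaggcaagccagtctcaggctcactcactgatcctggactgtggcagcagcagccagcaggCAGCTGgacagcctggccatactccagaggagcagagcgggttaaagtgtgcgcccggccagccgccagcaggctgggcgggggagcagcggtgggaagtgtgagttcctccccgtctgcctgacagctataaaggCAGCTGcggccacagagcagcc

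Several genes rose with wild-type differentiation and fell with MuSK-null differentiation. Adamts1 was at 9.89, 9.78 and 9.75 in wild-type myoblasts and 10.54, 10.54 and 10.53 in wild-type myotubes (0.73, adjusted p = 3.52e-08). In MuSK-null cells it went from 11.47, 11.56 and 11.36 to 9.95, 10.05 and 9.86 (-1.51, adjusted p = 1.2e-13), and the changes differed by -2.24 (adjusted p = 2.38e-13). Mmp2 went from 11.28, 11.13 and 11.23 to 12.08, 12.19 and 12.06 in wild-type cells (0.89, adjusted p = 2.21e-11) and from 13.09, 13.09 and 13.20 to 12.65, 12.65 and 12.59 in MuSK-null cells (-0.49, adjusted p = 4.86e-07). The untreated MuSK-null arrays stood above the untreated wild-type arrays at both stages, with the wider gap in myoblasts. Adamts6 and Adamtsl4 followed the same pattern, at 0.50 against -0.59 and 0.27 against -0.56. Timp2 rose by 0.34 in wild-type cells and fell by 0.32 in MuSK-null cells. Timp1 rose by 0.86 in wild-type cells (adjusted p = 1.43e-10) and changed by -0.06 in MuSK-null cells (adjusted p = 0.519). Adamtsl3 rose by 0.19 in wild-type cells and fell by 1.91 in MuSK-null cells, from 10.58, 10.49 and 10.48 to 8.69, 8.62 and 8.51 (adjusted p = 6.3e-17).

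Other genes were lower in myotubes of both lines, or were called lower in MuSK-null cells and not in wild-type cells. Adamts5 was lower in myotubes by 0.54 on the log2 scale in wild-type (adjusted p = 1.13e-07) and by 1.38 in MuSK-null cells (adjusted p = 9.73e-15; difference -0.84, adjusted p = 7.95e-08). Adamts4 dropped by 1.00 and 0.41, Mmp16, a membrane-type metalloproteinase, by 1.20 and 0.73, Mmp11 by 0.64 and 0.37, Mmp14 by 0.55 and 0.26, and Adamts7 by 0.39 and 0.58, in wild-type and MuSK-null cells respectively. The Mmp14 fall in MuSK-null cells was lost without untreated myotube replicate 3 (adjusted p = 0.0539). Mmp23 was at 9.06, 9.22 and 9.11 in wild-type myoblasts and 9.08, 8.95 and 8.97 in wild-type myotubes, which overlapped, and fell from 8.47, 8.62 and 8.51 to 7.32, 7.36 and 7.20 in MuSK-null cells (-1.24, adjusted p = 2.98e-12). Mmp19 likewise changed by -0.06 in wild-type cells and fell by 0.95 in MuSK-null cells (adjusted p = 4.05e-11). Adamts16 went the other way, with -0.21 in wild-type cells (adjusted p = 0.058) and a rise of 1.32 in MuSK-null cells, from 7.19, 7.16 and 7.17 to 8.63, 8.39 and 8.47 (adjusted p = 1.59e-11). Adamts14 rose in both lines, by 0.77 and 0.47. Timp3 rose by 0.30 in wild-type cells (adjusted p = 0.0141, up to 0.138 without untreated myoblast replicate 2 or untreated myotube replicate 1 or 2) and by 0.40 in MuSK-null cells (adjusted p = 0.00194).

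**Figure D4:**
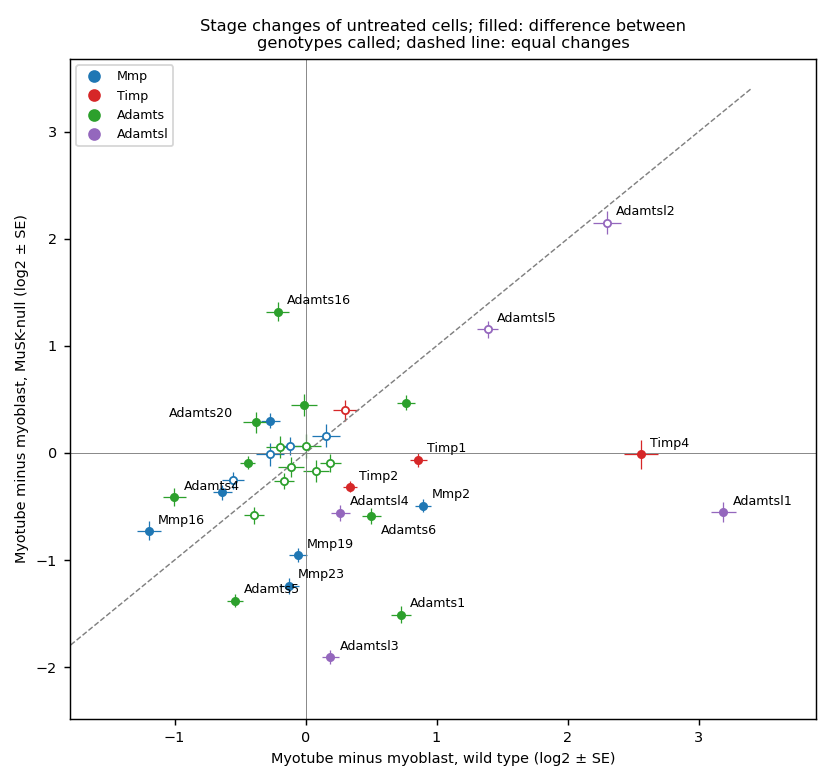
Log2 difference of untreated myotubes from untreated myoblasts (± SE of the fit) in wild-type cells (horizontal axis) and in MuSK-null cells (vertical axis) for the 35 genes above the gauge; filled points mark genes whose changes differed between lines, and the dashed line marks equal changes. Adamtsl2 and Adamtsl5 lie near the line, and Adamtsl1, Timp4, Adamts1 and Mmp2 lie to the right of 0 and below the line.

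The genotype comparison of untreated cells, which is also a comparison of 2 lines, called 22 of 49 genes in myoblasts, 14 up and 8 down in the MuSK-null line, beside 31.3% of all genes (15.3% and 16%). In myotubes it called 29, 16 higher and 13 lower and 3 of them dim, beside 37.4% (19.4% and 18%). In myoblasts the genes highest relative to wild type were Mmp2 (1.91, adjusted p = 4.14e-17), Adamtsl3 (1.72, adjusted p = 8.19e-16), Adamts1 (1.66, adjusted p = 3.94e-14), Adamts5 (1.12, adjusted p = 8.45e-13) and Adamtsl1 (1.02, adjusted p = 8.59e-09). Timp3 was higher by 0.87 (adjusted p = 2e-07), Adamts9 by 0.77, Adamtsl4 by 0.71, Mmp11 by 0.69, Adamts7 by 0.61, Mmp14 by 0.56, Adamts10 by 0.46, and Adamts3 by 0.31. Those called lower included Adamts20 (-0.95, adjusted p = 6.89e-08), Mmp23 (-0.60), Adamtsl2 (-0.56), Adamts12 (-0.48), Adamts16 (-0.45) and Timp1 (-0.44). Adamts20, a gene of pigment cell development, read 7.06, 7.26 and 7.11 in wild-type and 6.25, 6.10 and 6.22 in MuSK-null myoblasts, the latter under the gauge.

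In myotubes the order was another. Mmp11 (0.96, adjusted p = 1.43e-10), Timp3 (0.96, adjusted p = 3.4e-08), Mmp14 (0.85, adjusted p = 1.25e-08) and Adamts16 (1.08, adjusted p = 8.95e-10) were higher in MuSK-null cells. Mmp2 was higher by 0.53, Adamts9 by 0.53, Mmp28 by 0.56, Adamts4 by 0.42 and Adamts5 by 0.28. Adamtsl1 (-2.73, adjusted p = 2.1e-16), Timp4 (-2.53), Mmp23 (-1.71, adjusted p = 1.8e-14), Timp1 (-1.37, adjusted p = 7.1e-14) and Mmp19 (-1.03, adjusted p = 1.8e-11) were lower. Of the 4 inhibitors, Timp3 was higher and Timp1, Timp2 (-0.76, adjusted p = 4.62e-11) and Timp4 were lower. Adamts1, Adamtsl1, Adamtsl3 and Adamts6 were higher in MuSK-null myoblasts and lower in MuSK-null myotubes than in the wild-type cells of the same stage.

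**Figure D5:**
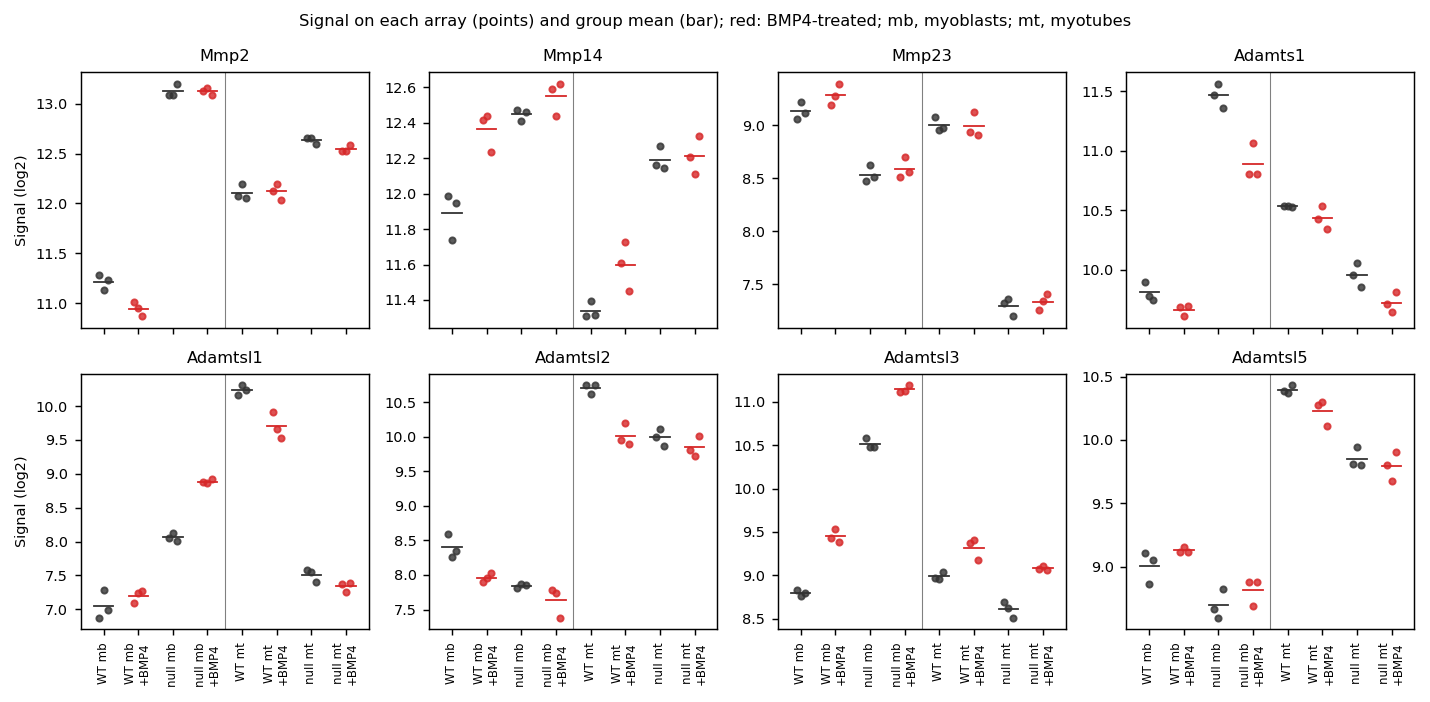
Log2 signal of each array (points) and group mean (bars) for 8 genes across the 8 groups, drawn as in the plot of BMP4-responsive genes with an axis for each panel. Mmp2, Adamts1 and Adamtsl3 peak in MuSK-null myoblasts, and Adamtsl1 in wild-type myotubes.

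The cells carried muscle markers in every group: all 10 muscle lineage markers were above the gauge, and their mean signal on an array ran from 9.95 to 12.35. In untreated MuSK-null against wild-type myoblasts 8 of the 10 were lower and 1 higher, with mean signals of 10.38 to 10.42 against 11.73 to 11.76, so the lines differed in state beside the genotype results above. In myotubes 5 were lower and 1 higher (12.22 to 12.26 against 12.30 to 12.35). Over all genes tested, 16% were lower and 15.3% higher in MuSK-null than in wild-type myoblasts, and 18% and 19.4% in myotubes. The muscle markers moved with BMP4 too: 1 was higher and 4 lower in wild-type myoblasts (mean signal 11.58 to 11.61 after BMP4), 0 higher and 5 lower in MuSK-null myoblasts (9.95 to 10.08), 1 higher and 1 lower in wild-type myotubes and 2 higher and 2 lower in MuSK-null myotubes. Beside them 3.89% to 5.36% of all genes were higher and 4.37% to 5.9% lower with BMP4 in a setting. Cdh15, the M-cadherin gene, fell by 1.14 in wild-type and 1.35 in MuSK-null myoblasts, and Myog, the myogenin gene, by 0.44 and 0.67. Of 7 fibroblast markers, 4 were higher and 1 lower in MuSK-null myoblasts (7.71 to 7.77 against 6.85 to 7.02) and 5 higher and 1 lower in the MuSK-null line after differentiation (mean 8.53 to 8.70, wild type 7.15 to 7.20), Dcn by 2.30 and 2.66. The part of these differences in the protease results was not tested, and in such bulk RNA fewer cells of a type and less RNA per cell cannot be told apart. The mean of 5 endothelial markers stayed between 6.01 and 6.23 and that of 5 macrophage markers between 6.17 and 6.42, below the gauge. Single macrophage markers, 1 or 2 in each group, were above it. Between myotube lines Cd68 was lower in MuSK-null cells (-0.91) and Itgam higher (0.33). The mean of 4 adipocyte markers ran from 6.33 to 6.73. That of the 2 Schwann cell markers measured, Sox10 and S100b, ran from 6.72 to 7.21, above the gauge, with no call in any comparison. Musk itself had group means of 11.57 and 10.85 in untreated wild-type and MuSK-null myoblasts and 12.72 and 11.22 in the myotubes; where its probe set lies relative to the deletion is unknown here, and these levels do not check the labels. Id1, a direct BMP target, rose by 2.44, 0.99, 2.05 and 2.19 in wild-type and MuSK-null myoblasts and wild-type and MuSK-null myotubes. In myoblasts its group means were 8.66 in wild-type and 10.62 in MuSK-null cells without BMP4, and 11.10 and 11.61 with it.

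Other genes of matrix turnover were counted from lists of their function. In the plasminogen system, the serine protease route to matrix breakdown, 7 genes were measured. Plau, the urokinase gene, fell with BMP4 by 0.53 in wild-type myoblasts (adjusted p = 2.62e-05), 0.38 in MuSK-null myoblasts (adjusted p = 0.00185) and 0.56 in wild-type myotubes (adjusted p = 2.42e-05), while Serpinb2, its inhibitor, rose by 1.39 in wild-type myoblasts and 1.56 in wild-type myotubes; its means in the MuSK-null groups (5.84 to 6.47) lay under the gauge, and no change is read there. Of 11 membrane ADAM proteases, 2 were higher and 2 lower with BMP4 in wild-type myoblasts and 3 higher and 1 lower in MuSK-null myoblasts. Beside them 5.21% of all genes were higher and 5.76% lower in wild-type myoblasts, and 3.89% and 4.52% in MuSK-null myoblasts. Adam12, a protease of fusing myoblasts, rose by 1.11 in MuSK-null myoblasts (adjusted p = 8.77e-12) and changed by -0.01 in wild-type ones. The 8 cathepsin and cystatin genes changed with BMP4 by -0.19 (Cst6 in MuSK-null myoblasts) to 0.15 (Ctsd in MuSK-null myotubes), and the lowest adjusted p among them was 0.173 (Ctsd). Among 10 genes of lecticans and hyaluronan, the substrates and partners of Adamts1, Adamts4, Adamts5 and Adamts9, versican (Vcan) changed by -0.18 to 0.15 with no call, and the hyaluronan synthase Has2 rose by 0.88, 0.47 and 0.95 in wild-type myoblasts, wild-type myotubes and MuSK-null myotubes and changed by -0.13 in MuSK-null myoblasts (adjusted p = 0.394).

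Collagens and laminins are structural substrates of these proteases. In the MuSK-null line 13 of 18 collagen and basement membrane genes stood higher than in the wild-type line and 1 stood lower, at each stage. Over all genes tested, 15.3% were higher and 16% lower in the MuSK-null line in myoblasts, and 19.4% and 18% in myotubes. With BMP4 between 1 and 5 of the 18 were lower and at most 1 was higher in each setting. Beside them 3.89% to 5.36% of all genes were higher and 4.37% to 5.9% lower. Between stages 2 were higher and 11 lower in wild-type myotubes than myoblasts, and 7 higher and 5 lower in the MuSK-null line. The shares of all genes were 20.3% higher and 24.7% lower in wild-type cells, and 18.2% and 23.4% in the MuSK-null line. Col4a1, a chain of the basement membrane collagen, was higher in MuSK-null cells by 1.25 in myoblasts and 2.30 in myotubes, and Lamb1 fell with BMP4 by 0.44, 0.39 and 0.66 in wild-type myoblasts, MuSK-null myoblasts and MuSK-null myotubes. Activators, non-TIMP inhibitors and clearance receptors formed a list of 14, of which MuSK-null myoblasts had 4 higher and 5 lower, and MuSK-null myotubes 2 higher and 6 lower, than wild-type cells. Again 15.3% of all genes were higher and 16% lower in myoblasts, and 19.4% and 18% in myotubes. Reck, a membrane inhibitor of Mmp2, Mmp9 and Mmp14, was higher in MuSK-null cells by 0.85 in myoblasts (adjusted p = 1.02e-08) and 0.62 in myotubes (adjusted p = 1.12e-06), and Spock2 by 2.79 and 1.13. Pcolce2, the enhancer of procollagen C-proteinase, rose with BMP4 by 0.86, 0.50 and 2.06 in wild-type myoblasts, wild-type myotubes and MuSK-null myotubes, with 0.39 in MuSK-null myoblasts (adjusted p = 0.1).

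Genes with no call in any of the 14 comparisons numbered 10 of 49, against 7030 of 19938 genes tested: Adamts13, Adamts15, Adamts18, Mmp1a, Mmp3, Mmp7, Mmp9, Mmp12, Mmp17 and Mmp25. Of these Adamts13, the von Willebrand factor protease, had group means between 6.61 and 6.98, and Mmp17 between 7.01 and 7.28. Adamts8 and Mmp24 were called once each, with changes of 0.27 (MuSK-null against wild-type myotubes, adjusted p = 0.0375) and -0.27 (wild-type myotubes against myoblasts, adjusted p = 0.041). The Mmp24 call was lost without untreated wild-type myoblast replicate 1 or 3 or untreated wild-type myotube replicate 2 (adjusted p = 0.0746 to 0.427). That myotube replicate read 6.47 beside 7.01 and 7.01, and without it the adjusted p was 0.427. Adamts17 was called higher in MuSK-null myotubes than myoblasts (0.45, adjusted p = 0.000604) on the brightest of its 5 probe sets.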

How the data were processed

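Gene expression was measured on 24 Affymetrix arrays, 3 for each of 8 groups. The authors deposited a table of log2 signals with 35556 probe sets; the submitters' processing notes list Affymetrix Expression Console and Partek, with the normalization not given in the sources used here. Of the probe sets, 21789 named 1 gene in the platform annotation (21698 with an ID in RefSeq), 1621 several and 12146 none. One-gene probe sets were used, the one with the highest mean for the 999 genes with more than 1, which left 19938 genes.

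A limma fit with 1 mean per group over all 24 arrays gave 14 comparisons, with Benjamini-Hochberg adjustment over all 19938 genes; genes with an adjusted p below 0.05 were called. The fit was tested on simulated data with independent errors, whereas some of the real arrays deviated together. For BMP4, genotype and stage it recovered 24% to 40% of log2 changes of 0.3 and 96% to 100% of changes of 1. For the difference of differences it recovered 2% at 0.3 and 78% at 1. Errors are SEs of the fit. R 4.3.3, limma 3.58.1, Python 3.11.15, pandas 2.3.3 and matplotlib 3.10.9 were used. Precision is limited by the number of arrays.

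The members and lists were chosen with earlier results of these data known. Genes picked for naming in a comparison were those called in it whose groups did not overlap (for differences of differences, called alone), up to 10 in each direction, with 12 set genes added: Mmp2, Mmp3, Mmp9, Mmp13, Mmp14, Timp1, Timp2, Timp3, Timp4, Adamts1, Adamts4 and Adamts5. Not every gene so picked is given with a value in each comparison, among them several for genotype. Further genes named beside them were chosen after their values were seen.

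Arrays of the same replicate number deviated together in every pair (correlation over 0.1) for BMP4 in MuSK-null myoblasts (0.12 to 0.46) and for genotype in myoblasts (0.22 to 0.42), and not in the other comparisons. Alternatives were a filter on dim genes, trend and robust moderation, quantile normalization, median centring, each probe set as its own row, the replicate number as a block, a fit of the compared groups alone, leaving out each array and, added after the data were seen, the set of 4 myoblast arrays as a block or left out.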

Additional observations from a re-analysis of the deposited data

Results flagged for a closer look

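Each value here is a limma estimate of a difference between 2 log2 changes that was called at an adjusted p below 0.05, and each was singled out because the same contrast gave different effects in 2 groups. No explanation was tested.

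For BMP4 in myoblasts, the change in MuSK-null minus that in wild-type cells was 0.71 for Adamts9, 0.69 for Adamts5, 0.67 for Adamtsl1, -0.98 for Timp3 and -0.43 for Adamts1. The Adamts1 difference was lost in 8 of 12 fits without 1 array (adjusted p up to 0.112) and without the set of 4 myoblast arrays (0.0717). In myotubes the difference was 1.12 for Timp4, 0.83 for Timp1, -0.95 for Adamts16, -0.53 for Adamts9 and -0.37 for Mmp11. The Mmp11 difference was lost in 11 of 12 fits without 1 array (adjusted p up to 0.127) and that of Adamts9 in 10 of 12 (up to 0.144). Timp4 lay under the gauge in both MuSK-null myotube groups, so no change is read for it there.

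For differentiation, the change in MuSK-null minus that in wild-type cells was positive for Adamts16 (1.53), Adamts20 (0.66), Adamts4 (0.59), Mmp28 (0.57), Mmp16 (0.47), Adamts17 (0.46, adjusted p = 0.0153, or 0.0503 without the set of 4 myoblast arrays), Adamts12 (0.35) and Mmp11 (0.27). It was negative for Adamtsl1 (-3.74), Timp4 (-2.58), Adamts1 (-2.24), Adamtsl3 (-2.10), Mmp2 (-1.38), Mmp23 (-1.11), Adamts6 (-1.09), Timp1 (-0.92), Mmp19 (-0.89) and Adamts5 (-0.84). These differences set 2 lines against each other. That of Mmp11 was lost in 11 of the fits without 1 array (adjusted p up to 0.148). Adamts20 lay under the gauge in untreated MuSK-null myoblasts, so no size is read from its difference. The same holds for Timp4, which was above the gauge only in wild-type myotubes.

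The BMP4 change in myotubes minus that in myoblasts was, in wild-type cells, 1.02 for Adamts5, 0.79 for Adamts16, 0.57 for Adamts4, -1.09 for Timp4, -0.76 for Timp3, -0.69 for Adamtsl1 and -0.41 for Timp1 (adjusted p = 0.0111 for Timp1, or 0.0523 without the set of 4 myoblast arrays). In MuSK-null cells it was 0.62 for Adamts4, 0.60 for Timp1, 0.48 for Adamts5, -1.25 for Adamts9, -0.99 for Adamtsl1, -0.63 for Mmp11, -0.60 for Adamts16 and -0.39 for Mmp28 (adjusted p = 0.0248 for Mmp28, or 0.105 without that set). The genotype difference in myotubes minus that in myoblasts was 1.00 for Timp1, 0.83 for Timp3, -1.40 for Adamts16, -1.23 for Adamts9 and -0.53 for Adamts5. BMP4 and serum withdrawal cannot be told apart in the myoblast terms of these differences. Timp4 lay under the gauge in both wild-type myoblast groups, so no size is read from its stage difference.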

How the results depend on the processing

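Of 126 counts of called members under other settings, 2 moved by more than 1.5 times. For the genotype difference in the BMP4 response of myoblasts the count was 8 (5 higher, 3 lower) with the set of 4 myoblast arrays as a block, against 5, and 4 without them. For the same difference in myotubes the count was 3 (2 higher, 1 lower) with the replicate block, against 5, since Adamts9 (adjusted p = 0.0625) and Mmp11 (0.0549) were lost; the replicate numbers do not pair these arrays. Where the numbers pair the arrays, the replicate block gave 13 called for BMP4 in MuSK-null myoblasts (12 without it, the added gene being the dim Mmp21) and 22 for genotype in myoblasts (22 without it).

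Leaving out each array in turn gave 15 to 16 called for BMP4 in wild-type myoblasts, 11 to 13 in MuSK-null myoblasts, 10 to 11 in wild-type myotubes and 7 to 10 in MuSK-null myotubes. It gave 21 to 23 and 26 to 29 for genotype in myoblasts and myotubes, and 24 to 26 and 25 to 27 for differentiation in wild-type and MuSK-null cells. For the genotype difference in the BMP4 response it gave 4 to 6 in myoblasts and 3 to 5 in myotubes, the count of 3 arising without untreated wild-type myotube replicate 1, 2 or 3, untreated MuSK-null myotube replicate 1 or 3, or BMP4-treated MuSK-null myotube replicate 1. For the difference in differentiation it gave 21 to 24, for the stage difference in the BMP4 response 7 to 8 in wild-type and 8 to 12 in MuSK-null cells, and for the difference of these 5 to 7. The cause of these shifts was not tested.

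Scaling moved the split of directions in 2 counts. The stage difference in MuSK-null cells was 5 higher and 5 lower after quantile normalization or median centring, against 3 and 7, and the genotype difference in myotubes was 3 higher and 1 lower after median centring, against 2 and 3. Of 4592 refits of single members, 4424 stayed on the same side of the threshold, 130 lost the call and 38 gained one. None that was called in either fit changed direction, and changes of sign without a call were not counted. Signals near the gauge give only bounds, and 3 arrays a group limit small changes. What the comparisons separate is limited by 1 line per genotype, serum withdrawal in treated myoblasts, and the temperature and medium of each stage.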

Other observations

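In the RefSeq annotation 3 of the 4 Timp genes lie within synapsin genes: Timp1 within Syn1 on chromosome X, Timp3 within Syn3 on chromosome 10 and Timp4 within Syn2 on chromosome 6. The values of these host genes are given because of that position and were chosen after they were seen. Syn1 rose with BMP4 by 0.63 in wild-type myoblasts (adjusted p = 4.05e-07), 0.28 in MuSK-null myoblasts (0.00803), 0.41 in wild-type myotubes (0.000188) and 0.90 in MuSK-null myotubes (2.19e-09). Its rise was 0.48 larger in MuSK-null than in wild-type myotubes (adjusted p = 0.0044), where that of Timp1 was 0.83 larger. Between stages the 2 genes parted: in wild-type cells Syn1 changed by 0.01 and Timp1 rose by 0.86, and in MuSK-null cells Syn1 fell by 0.80 on the log2 scale and Timp1 changed by -0.06. Syn2 was 0.78 higher in wild-type myotubes than myoblasts (adjusted p = 4.93e-07) and 0.87 lower in MuSK-null than in wild-type myotubes (log2 change -0.87, adjusted p = 1.6e-07), and with BMP4 in wild-type myotubes it changed by -0.07 (adjusted p = 0.774) where Timp4 fell by 1.18. Syn3 was called with BMP4 in wild-type myotubes (0.31, adjusted p = 0.0384) and changed by 0.15 in wild-type myoblasts (adjusted p = 0.445), where Timp3 rose by 1.33. The part of the host genes' transcripts in the Timp signals was not tested.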
